A study of Mus musculus with 30 samples.

Results

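The comparison described here sets the mammary glands of E2F3 +/- mice against those of wild type (WT) mice at day 4 of involution, the regression of the gland once suckling ends. Its members are the 3 arrays titled as E2F3 +/- and the 3 titled as WT at that day, 6 of the 30 arrays of a time course. The series also holds lactation and days 1, 2 and 3 in both genotypes, with 3 mice in each of the 10 groups. Each array co-hybridised amplified gland RNA, labelled with Cy5, and RNA of a common mouse reference, labelled with Cy3, to spotted 70-mer probes, and the dyes ran the same way on every array. The labels name the genotype as E2F3 +/- only. The targeted allele, the strain, the age and the parity of the mice are not stated, and no group is said to carry any other allele or treatment.

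E2F3 is a transcription factor of the E2F family, which binds DNA with a DP partner and switches on genes of DNA replication and cell cycle entry, and which the retinoblastoma proteins hold in check. After weaning, Stat3 signalling and lysosomal proteases take part in the death of the milk-secreting epithelium. Macrophages clear dead cells and milk fat, milk protein and milk lipid synthesis shut down, and fat cells refill the space. Whole-gland RNA was measured, so fewer cells of a type and less RNA per cell cannot be told apart.

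A value below is the log2 ratio of gland to reference for 1 probe on 1 array after the median of that array was set to 0. The direction gland over reference is likely, from the dye labels and from the very high ratios of the milk protein genes, but it is not written in the file. A difference is E2F3 +/- minus WT on this log2 scale. The value after ± is its standard error from a limma model of all 30 arrays, n is 3 and 3 unless another n is given, and a probe is said to have passed, or to be called, where its p, adjusted by Benjamini-Hochberg over the 5010 tested probes, was under 0.05. The fit was repeated without replicate 3 of E2F3 +/- day 4, with n of 3 WT and 2 E2F3 +/- arrays.

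The tissue label was checked on the day 4 arrays. The casein gene Csn3 lay between 8.74 and 11.53 over its 2 probes and 6 arrays and the milk protein gene Lalba between 8.53 and 10.29. The luminal keratins Krt8 and Krt18 lay between 0.73 and 2.23. The E2F3 +/- genotype itself could not be checked, since 0 probes are named E2f3.

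The 3 E2F3 +/- glands of day 4 did not form 1 group. Whether replicate 3 is a gland of the genotype and day on its label, taken and dissected like the others, was not tested, and this bears on every value given with it or without it. Over the 3968 probes measured on all arrays, E2F3 +/- replicates 1 and 2 correlated at r = 0.95, while replicate 3 correlated with them at 0.80 and 0.75 and with the 3 WT arrays at 0.86 to 0.88. The WT arrays correlated among themselves at 0.85 to 0.92. These are correlations over probes that share a reference and an array, and are given as a description. Replicate 3 was nearest to the mean of WT day 3 (r = 0.94), replicate 2 to that of WT day 2 (0.91, against 0.906 for the other arrays of its own group) and replicate 1 to its own group (0.95). The WT day 4 arrays were nearest to other groups too, replicate 1 to WT day 3 (0.914) and replicates 2 and 3 to E2F3 +/- day 3 (0.916 and 0.96). The spread of the values, as the interquartile range of the log2 ratios, was 2.14 and 2.33 on E2F3 +/- replicates 1 and 2, 1.504 on replicate 3, and 1.71 to 1.79 on the WT arrays. Between 2.44% and 12.1% of the probes had no usable ratio on a day 4 array.

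A line drawn from lactation, at 0, to day 3, at 1, through the means of their arrays, gave each gland a position in the time course. The WT day 4 glands lay at 1.03, 1.07 and 1.03, and the E2F3 +/- glands at 1.22, 1.33 and 0.89. Replicates 1 and 2 of E2F3 +/- lay beyond every WT day 4 gland and replicate 3 before all of them. The means were 1.15 ± 0.23 (SD, n = 3) and 1.04 ± 0.02 (SD, n = 3), a difference of 0.105 (two-sided exact permutation test, p = 0.4, where 0.1 is the smallest p that 3 against 3 arrays allow). Without replicate 3 the difference was 0.234 (exact permutation p = 0.2). One WT gland of an earlier day, WT day 2 replicate 3, lay at 1.33.

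Skeletal muscle RNA separated replicate 3 further. The mean over 8 muscle probes, among them the troponins Tnnc2, Tnni2 and Tnnt3 and the myosin Myh2, was 5.57, 5.23 and 6.90 on the WT day 4 arrays and 6.72, 8.02 and -0.89 on the E2F3 +/- arrays. On replicate 3, Myh2 and Tnni2 were listed at 0 and the mean is over the other 6. In WT lactation and day 1 the list mean ran from -1.37 to 2.89, but its values below 0 came from arrays with 2 or 3 probes measured. The WT arrays of these times with 7 or 8 probes ran from 0.69 to 2.89. The E2F3 +/- arrays of these times ran from 2.77 to 4.27, so replicate 3 lay below all arrays with 7 or 8 probes. The median difference of the list was -0.98 with all arrays and 1.55 without replicate 3, and 0 of its 8 probes passed in either fit. Acute phase RNA was highest on the same array: the mean of the list was 6.12 there and 3.49 to 4.44 on the other 5, and the serum amyloid gene Saa3 stood at 7.24 against -0.92 to 1.95. No probe of the neutrophil or red blood cell list was tested. The part of muscle or acute phase RNA in the results below was not tested beyond a fit with the muscle mean as a covariate, under which 447 probes passed, all 56 probes called in the fit of all arrays among them. Without replicate 3 the covariate left 518 probes, 508 of them among the 777 that passed with no covariate.

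**Figure D1:**
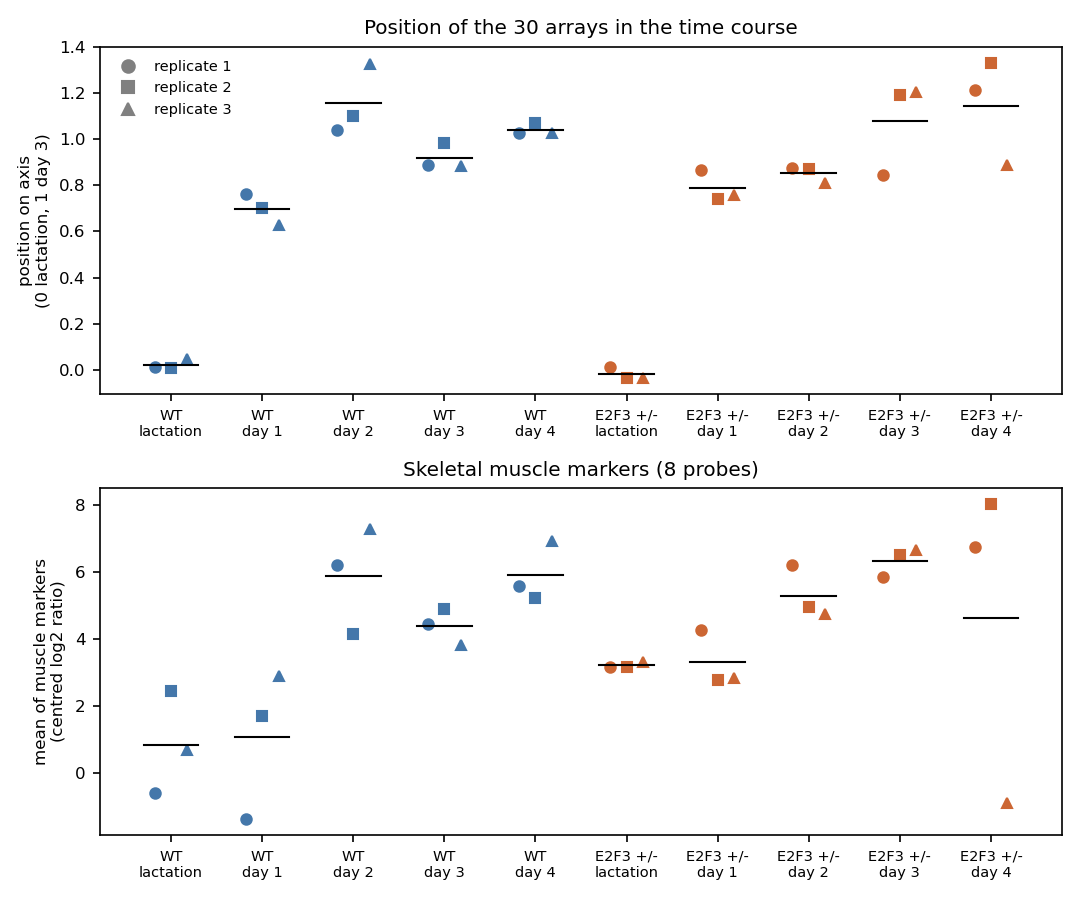
Each point is 1 of the 30 arrays, its shape the replicate and the bar the mean of 3. The upper panel gives the position between lactation (0) and day 3 (1), and the lower panel the mean centred log2 ratio of the muscle markers. Replicate 3 of E2F3 +/- day 4 lies at 0.89 and -0.89, below the other day 4 arrays in both.

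With all 6 glands, 56 of the 5010 probes (1.12%) differed between E2F3 +/- and WT at day 4, 47 lower (0.938%) and 9 higher (0.18%) in E2F3 +/-. Without replicate 3, 777 probes passed (15.5%), 625 lower (12.5%) and 152 higher (3.03%). Of the 56, 55 passed both ways. Of the 55, 29 have 1 gene symbol, 20 lower and 9 higher, and 26 have none or several and are not named. The median difference over all tested probes was -0.04 with all arrays and -0.07 without replicate 3.

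Both counts lean on more than these 6 arrays. With only the day 4 groups in the fit, whose spread then comes from 6 arrays, 0 probes passed limma with all glands (288 at an unadjusted p under 0.05) and 391 without replicate 3. Leaving out another single day 4 array left 1 to 35 probes. Of the 30 named probes that passed with all arrays, every one kept its sign in each of 6 fits that left out a day 4 array, and 0 passed in all of these. Where the groups of a probe do not overlap, leaving out 1 array cannot change the sign. All 30 lost their call without E2F3 +/- replicate 2. A further setting, no centring of the arrays, moved the split of the calls made without replicate 3 from 19.6% to 36.3% higher (287 of 790).

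Lgals3, Gpnmb and Lrp1 were lower in every E2F3 +/- gland than in any WT gland of day 4. They were named by a rule that took only probes whose groups did not overlap. So were Krt84, Aebp1, Trafd1, Pim3, Spsb1, St6galnac6, Tspo, Net1 and Mrpl38 below. The separation of all these genes is therefore given as a description. It was seen for 12.4% of all tested probes with all arrays. The lectin galectin-3, Lgals3, which macrophages and epithelium make, stood at -0.38, 0.71 and -0.97 in WT and -1.19, -2.06 and -2.74 in E2F3 +/- glands. The groups do not overlap, and replicate 3 was the lowest of all 6. The difference was -1.78 ± 0.43 (3.44-fold lower, limma adjusted p = 0.0396) with all arrays and -1.41 ± 0.45 (adjusted p = 0.035) without replicate 3. A second probe of the gene gave -1.75 ± 0.47 with all arrays (adjusted p = 0.0661).

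Gpnmb, a glycoprotein of phagocytic macrophages, read -0.53, 0.10 and -0.73 in WT and -1.12, -2.96 and -4.41 in E2F3 +/- glands. Again replicate 3 was the lowest, so the difference of -2.44 ± 0.57 (5.43-fold lower, adjusted p = 0.0396) shrank to -1.65 ± 0.53 (adjusted p = 0.0369) when it was left out. Lrp1, the endocytic receptor of lipoproteins and proteases, ran from -0.81 to -0.15 in WT and read -2.75, -2.19 and -1.38 in E2F3 +/- glands, a difference of -1.66 ± 0.40 (adjusted p = 0.0395). The groups are apart in both, with replicate 3 the nearest to WT for Lrp1 only.

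Other macrophage markers, from a list of 11 genes of which 9 were tested with 10 probes, gave 0 calls with all arrays. In that fit 10 of 10 differences were negative, beside 2679 of all 5010 tested probes (median -0.41, against -0.04 over all tested probes). Without replicate 3 the growth factor receptor Csf1r (-1.37 ± 0.41, adjusted p = 0.028) and the scavenger receptor Cd68 (-1.48 ± 0.47, adjusted p = 0.0334) were lower. Each of the 6 glands can be read for Cd68: 0.79, 1.26 and 0.34 in WT and -0.21, -1.17 and -0.10 in E2F3 +/-. The lysozymes Lyz1 and Lyz2, close paralogs that a 70-mer may not separate, differed by -0.63 to -0.17 with all arrays and passed in neither fit. Without replicate 3, 3 of the 10 differences were positive, for Lyz2 (0.39), 1 of 2 probes of Lyz1 (0.40) and the receptor chain gene Fcer1g (0.34), and the median was -0.29.

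Krt84, a keratin of hair and nail, had the lowest difference of the named genes with all arrays. Without replicate 3, Btn1a1 and Fasn, described below, were lower. Krt84 read -0.85, 0.74 and -0.28 in WT and -3.85, -3.61 and -2.40 in E2F3 +/- glands, -3.16 ± 0.59 with all arrays (8.93-fold lower, adjusted p = 0.0184) and -3.60 ± 0.63 without replicate 3 (adjusted p = 5.78e-04). With Ubl3 and Zfp503 below, it is 1 of 3 named probes that still passed in 4 of the 6 fits leaving out an array. Its call was lost without E2F3 +/- replicate 1 or 2.

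Aebp1, whose product lies in the extracellular matrix, ran from -1.05 to 0.20 in WT and from -2.59 to -2.03 in E2F3 +/- glands (-1.87 ± 0.37, adjusted p = 0.0184). Its 3 E2F3 +/- values are close together, so it reads much the same without replicate 3 (-2.03 ± 0.42).

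Further genes lower both ways had varied roles. Trafd1, a brake on innate immune signalling, read 1.66, 2.76 and 1.22 in WT and 0.07, -0.38 and 0.23 in E2F3 +/- glands (-1.91 ± 0.38, adjusted p = 0.0184). The kinase gene Pim3 read 0.41, -0.15 and 0.53 against -1.40, -1.43 and -0.63 (-1.42 ± 0.35, adjusted p = 0.0426). For both, all 3 E2F3 +/- glands lay below all 3 WT glands. Spsb1, an adaptor of a ubiquitin ligase, ran from 0.40 to 0.72 in WT and from -0.99 to -0.47 in E2F3 +/- glands (-1.33 ± 0.29, adjusted p = 0.0278). The sialyltransferase gene St6galnac6 (-1.64 ± 0.37, adjusted p = 0.0333) and Tspo, a cholesterol-binding protein of the outer mitochondrial membrane (-1.53 ± 0.32, adjusted p = 0.0235), had groups apart as well.

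Net1, an exchange factor for the GTPase RhoA, shows the other shape: 0.53, 0.33 and 0.07 in WT and -2.81, -2.26 and -0.19 in E2F3 +/- glands. Replicate 3 lies just below the WT glands and far above the other E2F3 +/- glands. The difference was -2.07 ± 0.51 (adjusted p = 0.0448) with it and -2.85 ± 0.45 (adjusted p = 2.86e-04) without it. Mrpl38, a protein of the mitochondrial ribosome, and Ubl3, a ubiquitin-like protein, had the same shape, with differences of -1.41 ± 0.33 (adjusted p = 0.0395) and -1.13 ± 0.21 (adjusted p = 0.0184). Other probes of these genes were also negative with all arrays (Net1 -1.33 at n = 3 and 2, Mrpl38 -0.68, Ubl3 -0.88 and -0.73). None of the 4 passed with all arrays.

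Plcxd3 (-1.04 ± 0.24, adjusted p = 0.0322) and Chrna6, a nicotinic receptor subunit (-1.13 ± 0.25, n = 2 and 3, adjusted p = 0.0298), had groups apart. Among lower genes named after their values were seen, Mknk2, a kinase of the initiation factor eIF4E, differed by -2.40, Rangap1, the activator of the GTPase Ran, by -1.62 and 1700037H04Rik by -2.10, and in these 3 replicate 3 lay among the WT values. Rnf187 (-1.25) and Bscl2, which encodes the lipid droplet protein seipin (-1.22), were chosen the same way and had groups apart. Bcat2, the mitochondrial enzyme that starts the breakdown of branched-chain amino acids, passed with all arrays only (-1.42 ± 0.35, adjusted p = 0.0466). Its values were 2.38, 2.72 and 2.93 in WT and 1.82, 1.89 and 0.07 in E2F3 +/- glands, and without replicate 3, the lowest, the adjusted p was 0.0574.

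All 9 probes higher in E2F3 +/- glands carry a gene symbol, and in each the 3 E2F3 +/- glands lay above the 3 WT glands. The same values chose these probes, so their separation is given as a description. Over all tested probes, the groups did not overlap for 12.4% with all arrays. Eif4g3, a scaffold of translation initiation, read -0.43, 0.82 and 0.68 in WT and 2.03, 2.26 and 1.46 in E2F3 +/- glands (1.56 ± 0.32, 2.95-fold, adjusted p = 0.0184). The zinc finger repressor gene Zfp503 read 0.33, 0.55 and 0.62 against 1.33, 2.05 and 2.56 (1.48 ± 0.29, 2.79-fold, adjusted p = 0.0184). Replicate 3 was the lowest of the E2F3 +/- glands for the first and the highest for the second.

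Cnot6 and Cnot7 encode deadenylases of the complex that shortens mRNA tails, and both were higher. Cnot7 ran from -0.42 to -0.14 in WT and from 0.51 to 0.81 in E2F3 +/- glands (0.93 ± 0.22, adjusted p = 0.0396). Cnot6 ran from -0.61 to -0.50 and from 0.20 to 0.63 (0.89 ± 0.20, adjusted p = 0.0298). The spread within each group was a fraction of the gap, and leaving out replicate 3 moved the differences only to 0.97 and 0.95.

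Stmn1, a microtubule destabiliser abundant in dividing cells, read -2.02, -1.35 and -2.13 in WT and -0.59, -0.87 and -0.82 in E2F3 +/- glands (1.07 ± 0.24, adjusted p = 0.0298). Its second probe gave 0.99 ± 0.35 (adjusted p = 0.148). Bcl9, a cofactor of beta-catenin (1.03 ± 0.25, adjusted p = 0.0448), Vwa5a (1.24 ± 0.29, adjusted p = 0.0333) and Gm6212 (1.05 ± 0.23, adjusted p = 0.0298) had differences of similar size. Nras, a small GTPase, was higher on 1 probe (0.86 ± 0.20, adjusted p = 0.0322), while its other probes differed by -0.87 and -0.68 and, without replicate 3, by -1.52 and -1.58, so no direction is given for the gene.

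**Figure D2:**
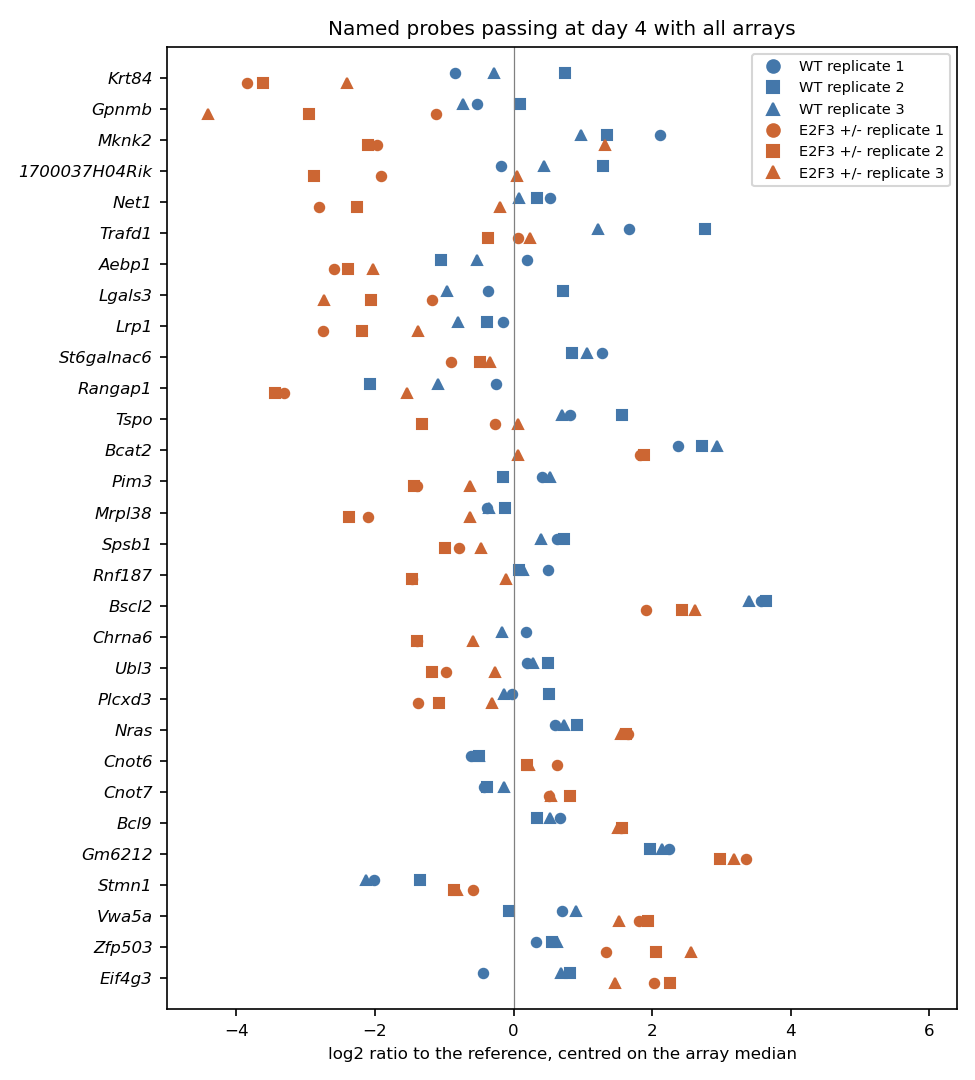
Each row is 1 of the 30 named probes that passed with all arrays, ordered by difference. Points are the centred log2 ratios of the 6 day 4 arrays, blue for WT and orange for E2F3 +/-, with the shape giving the replicate. Replicate 3 (triangles) lies with the other E2F3 +/- arrays for Zfp503 and Lgals3 and among the WT arrays for Mknk2.

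Of the E2F and retinoblastoma family, 2 of 13 genes are on the array. E2f1, a relative of E2F3 that also drives replication genes, was measured on 2 arrays of each group: -2.78 and -3.59 in WT (replicates 2 and 3) and -2.68 and -2.53 in E2F3 +/- (replicates 1 and 3). The difference was 0.58 ± 0.48 (adjusted p = 0.574) and did not pass.

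Rb1, the retinoblastoma gene, was set aside from the test because 2 of the 3 WT lactation arrays listed no usable ratio. On day 4 it was measured in every gland, at 1.78, 1.32 and 2.44 in WT and 3.50, 3.79 and 3.28 in E2F3 +/-. All E2F3 +/- glands lay above all WT glands, replicate 3 with the others. With a filter on the day 4 groups only, under which 5753 probes were tested and 49 passed, the Rb1 difference was 1.68 ± 0.30 (limma adjusted p = 0.0192), and without replicate 3 it was 1.80 ± 0.33 (adjusted p = 0.00116). The call was lost without WT replicate 1 (adjusted p = 0.0639), E2F3 +/- replicate 1 (0.0587) or E2F3 +/- replicate 2 (0.0726), where the difference was 1.54 to 1.69.

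The groups were apart on the earlier days of involution too, although Rb1 was looked up on those days after its day 4 values were seen and no test was made. On day 1 it ran from 1.88 to 2.60 in WT and from 2.77 to 3.39 in E2F3 +/- glands, on day 2 from 2.14 to 2.78 and from 2.99 to 3.23, and on day 3 from 2.50 to 2.75 and from 2.88 to 3.36. In lactation the 1 measured WT gland stood at 0.09 and the E2F3 +/- glands at 0.33 to 1.35.

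Known E2F target genes of DNA replication gave no call. Of 37 in the list 9 were tested, 7 of 9 differences were positive and the median was 0.23 with all arrays and 0.39 without replicate 3. Among all 5010 tested probes, 2331 differences were positive with all arrays and 2296 without replicate 3. Fen1, the flap endonuclease of lagging strand synthesis, was among the higher values (0.68 ± 0.38 with all arrays, adjusted p = 0.371). So was the cyclin gene Ccna2 (n = 2 and 3, adjusted p = 0.607). Its measured day 4 ratios were only 0.023 to 0.064, near the 0.01 taken as missing. Rfc2, a clamp loader subunit, was the lowest at -0.09.

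Promoter sequence was read for the genes that passed both ways, to show where letters that E2F proteins can bind occur near their starts. The windows are those of RefSeq on GRCm38.p6, 250 bases before to 50 after a gene's start, and the search took TTTCCCGC, TTTCGCGC, TTTGCCGC and TTTGGCGC on both strands. Of the 29 genes 22 have a promoter in the table, and 2 of these hold a match, both of them lower in E2F3 +/- glands. They are printed 5′ to 3′ on the strand of the gene, with the match in capitals.
Lrp1, chr10:127621280-127621367, minus strand: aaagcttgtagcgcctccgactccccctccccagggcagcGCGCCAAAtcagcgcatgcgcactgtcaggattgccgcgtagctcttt
Spsb1, chr4:149955188-149955256, minus strand: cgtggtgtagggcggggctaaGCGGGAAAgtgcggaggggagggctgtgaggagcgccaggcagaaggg
Both stretches lie upstream of the start. Over all tested genes with a promoter, 105 of 2351 (4.47%) hold a match, and among the genes lower without replicate 3 it was 23 of 322 (7.14%), with a median GC content of 62.7% against 61.3%. A share is void where fewer than 80% of the genes have a promoter in the table. This holds for the genes that passed both ways (22 of 29) and for higher genes (55.6% with all arrays and 73.5% without replicate 3). The share of lower genes can therefore not be set against one of higher genes, and no link to the direction can be read from it. Over all promoters in the table, counted one by one, 2.27% hold a match. A match is a run of letters and shows no binding.

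The 777 probes called without replicate 3 were chosen by replicates 1 and 2, and replicate 3 was then read on them. Its value lay within the range of the 3 WT glands for 338 of the 777. For 463 it lay on the far side of the WT mean from replicates 1 and 2. A probe can be in both counts, and neither was made over all tested probes. With replicate 3 in the fit all 777 differences kept their sign, but replicates 1 and 2, whose values chose the probes, are still in that mean. Groups that do not overlap are common in this design: 12.4% of all tested probes with all arrays and 46.7% without replicate 3. Named by the smallest p, the genes called only without it were Ptms, Wbp2, Pebp1, Gnb2, Lrp10 and Slc48a1. Wbp2, a WW-domain-binding coactivator, stood at 0.30, 0.45 and 0.28 in WT and -2.85, -2.89 and 0.88 in E2F3 +/- glands. Replicate 3 is the highest of the 6, and the difference was -1.96 ± 0.62 (adjusted p = 0.128) with it and -3.22 ± 0.41 (adjusted p = 3.68e-05) without it. Gnb2, a beta subunit of heterotrimeric G proteins, read 0.50, -0.28 and -0.42 against -2.89, -3.70 and 0.21 (-3.23 ± 0.44 without replicate 3, adjusted p = 7.38e-05).

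Genes of involution biology were read through lists of 270 tested probes in all. With all arrays, 0 of the 270 passed limma (34 at an unadjusted p under 0.05, beside 841 of all 5010 tested probes). Without replicate 3, 33 passed, 28 lower and 5 higher, which is 12.2% beside 15.5% of all tested probes. The members named here as passing are the up to 4 probes of smallest p in a list, whatever their direction. Acss1 and Lamp2 were named outside this rule. The n is 3 WT and 2 E2F3 +/- glands unless given. Where 1 E2F3 +/- value is left, it is assumed to vary like the other groups.

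Milk lipid synthesis had 7 probes lower and 1 higher of 27 without replicate 3, with a median of -0.70 (-0.44 with all arrays). Fasn, the fatty acid synthase, stood at 5.59, 5.51 and 5.53 in WT and 2.20, 1.01 and 5.03 in E2F3 +/- glands. All E2F3 +/- glands lie below WT, replicate 3 by the least. The difference was -3.94 ± 0.61 (15.3-fold lower, adjusted p = 2.36e-04) without replicate 3 and -2.80 ± 0.71 (adjusted p = 0.0522) with it.

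Slc25a1, the carrier that brings citrate out of mitochondria for fatty acid synthesis, read 3.44, 3.98 and 3.97 against 2.04, 1.14 and 3.19 (-2.21 ± 0.42, adjusted p = 0.00104). Srebf1, the regulator of lipogenic genes, read 2.98, 1.78 and 2.61 against 0.96, 0.46 and 2.32 (-1.74 ± 0.34, adjusted p = 0.00143), with replicate 3 inside the WT range. The elongase gene Elovl1 was lower too (-1.04 ± 0.29, adjusted p = 0.0184). Acss1, a mitochondrial acetyl-CoA synthetase, was the 1 higher member (1.29, adjusted p = 0.0337). Of cholesterol synthesis, 2 of 10 probes were lower: Srebf2, the regulator of its genes (-1.67 ± 0.33, adjusted p = 0.00139), and the kinase gene Pmvk (-1.26 ± 0.42, n = 2 and 1, adjusted p = 0.0455), whose other probe differed by 0.08.

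Of 6 milk protein probes 2 were lower without replicate 3. Btn1a1, the butyrophilin of the milk fat globule, read 3.04, 3.66 and 6.02 in WT and -0.03, 0.03 and 5.02 in E2F3 +/- glands (-4.24 ± 1.15, adjusted p = 0.0138). The folate receptor gene Folr1 read 5.20, 4.22 and 5.92 against 3.28, 2.14 and 6.10 (-2.41 ± 0.66, adjusted p = 0.0154). On replicate 3 both genes read like WT, and on both probes the reference signal appears to sit at a fixed lowest value, which bounds the ratios. Csn3 and Lalba did not pass (without replicate 3, -0.01 and -0.11 for the probes of Csn3 and -0.50 for Lalba).

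The lysosome list had 6 of 20 probes lower and 0 higher without replicate 3 (median -0.15). Psap, the precursor of the saposins that help break down sphingolipids, read 2.97, 3.02 and 2.98 in WT and 0.40, 0.33 and 3.04 in E2F3 +/- glands. The WT values are close together, replicates 1 and 2 lie far below them and replicate 3 just above. The difference was -2.63 ± 0.46 (adjusted p = 5.99e-04) without replicate 3 and -1.74 ± 0.55 (adjusted p = 0.126) with it.

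Ctsd, the aspartic protease cathepsin D, read 3.44, 3.25 and 3.07 against 1.79, 1.16 and 3.11 (-1.78 ± 0.28, adjusted p = 2.36e-04). Cd63, a tetraspanin of lysosomal membranes (-2.75 ± 0.50, adjusted p = 7.39e-04), and the carboxypeptidase gene Ctsa (-2.27 ± 0.44, adjusted p = 0.0012) were also lower on replicates 1 and 2 only. A further member, Lamp2, disagreed between its 3 probes: -2.12 for the probe that passed, -0.11 and 0.14 for the others.

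Among signalling genes, the death receptor gene Tnfrsf1a read 0.41, 0.88 and 0.14 in WT and -3.59, -2.11 and 0.56 in E2F3 +/- glands (-3.33 ± 0.60, adjusted p = 7.07e-04). Stat3, the transcription factor that drives early involution, read 2.57, 1.11 and 1.66 against 0.46, -0.03 and 2.81 (-1.56 ± 0.42, adjusted p = 0.0122). Cish, a target of Stat5, read 1.78, 2.06 and 2.11 against 0.34, 0.93 and 2.33 (-1.35 ± 0.43, adjusted p = 0.0378). For these genes replicate 3 lay among or above the WT values, and with it the adjusted p was 0.13, 0.505 and 0.385.

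Bak1, an effector of mitochondrial apoptosis (-2.07 ± 0.51, n = 3 and 1, adjusted p = 0.00837), and Timp2, an inhibitor of matrix metalloproteases (-3.21 ± 0.77, adjusted p = 0.00659), were lower without replicate 3. So were Atf4, a factor of the integrated stress response (-1.03 ± 0.27, adjusted p = 0.012), and Thy1, the 1 tested T and NK cell marker, also made by fibroblasts (-1.14 ± 0.34, adjusted p = 0.0257). Higher were the growth factor gene Igf1 (0.94 ± 0.31, adjusted p = 0.043), Klf4 (1.04 ± 0.30, adjusted p = 0.0194), the ATP synthase subunit gene Atp5g1 (0.90 ± 0.30, adjusted p = 0.0431) and the ribosomal Rpl30 (0.76 ± 0.21, adjusted p = 0.0184). Rpl15, also ribosomal, was lower on 1 of 4 probes (-1.81 ± 0.43, adjusted p = 0.00598), with -0.86 to -0.32 on the others. Cd36, the fatty acid carrier, was lower on 1 of 3 probes (-2.40 ± 0.72, adjusted p = 0.0254), with 0.33 and 0.04 on the others.

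**Figure D3:**
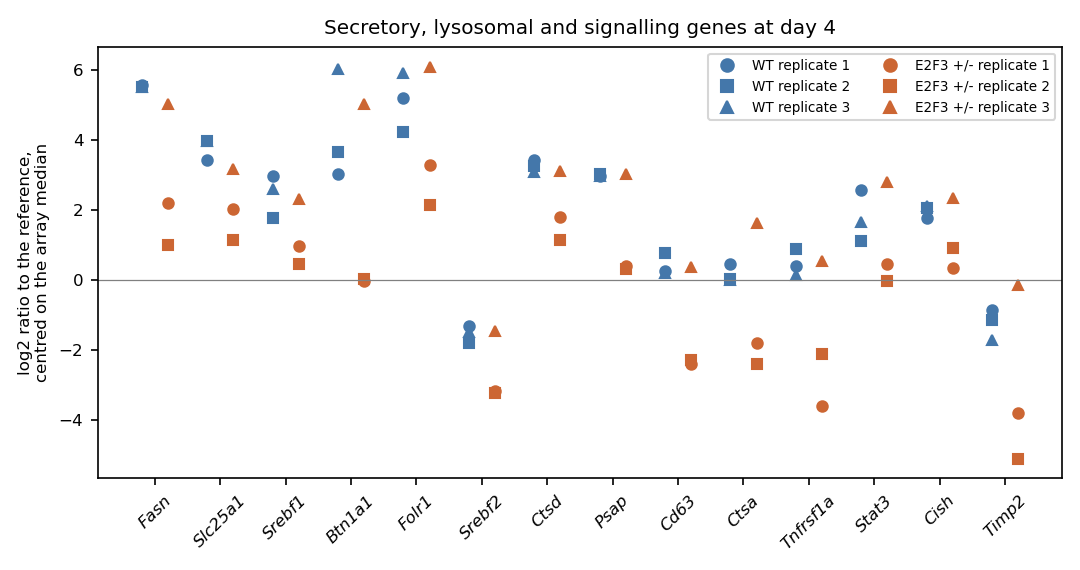
Centred log2 ratios of 14 list genes that passed only without replicate 3 of E2F3 +/-, for the 6 day 4 arrays (blue WT, orange E2F3 +/-, shape the replicate). Replicates 1 and 2 lie below all WT arrays for each gene, and replicate 3 lies near, among or above them, as for Psap at 3.04 against 2.97 to 3.02.

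Probes of 1 gene agreed in part. For the 84 probes called lower without replicate 3 whose gene has another tested probe, 76 of 109 other probes (69.7%) shared the sign, 34 passed lower and 5 passed higher. Over all pairs of probes of 1 gene, 203 of 329 (61.7%) shared a sign. For the 15 called higher, 10 of 22 others (45.5%) did, 4 passed higher and 5 passed lower.

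Other lists held 0 to 2 called probes and are given by their medians. Oxidative phosphorylation had 26 of 32 positive differences without replicate 3 (median 0.27) and 16 of 32 with it (0.01). Of all 5010 tested probes, 2296 were positive without replicate 3 and 2331 with it. Ribosomal proteins were split, 27 of 54 positive (median 0.01) with 1 higher and 1 lower call. The luminal epithelium list had a median of 0.15 over 6 probes and 0 calls, the fibroblast list 0.21 over 6 probes and 0 calls, and the adipocyte list 0.11 over 10 probes and 1 lower call.

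**Figure D4:**
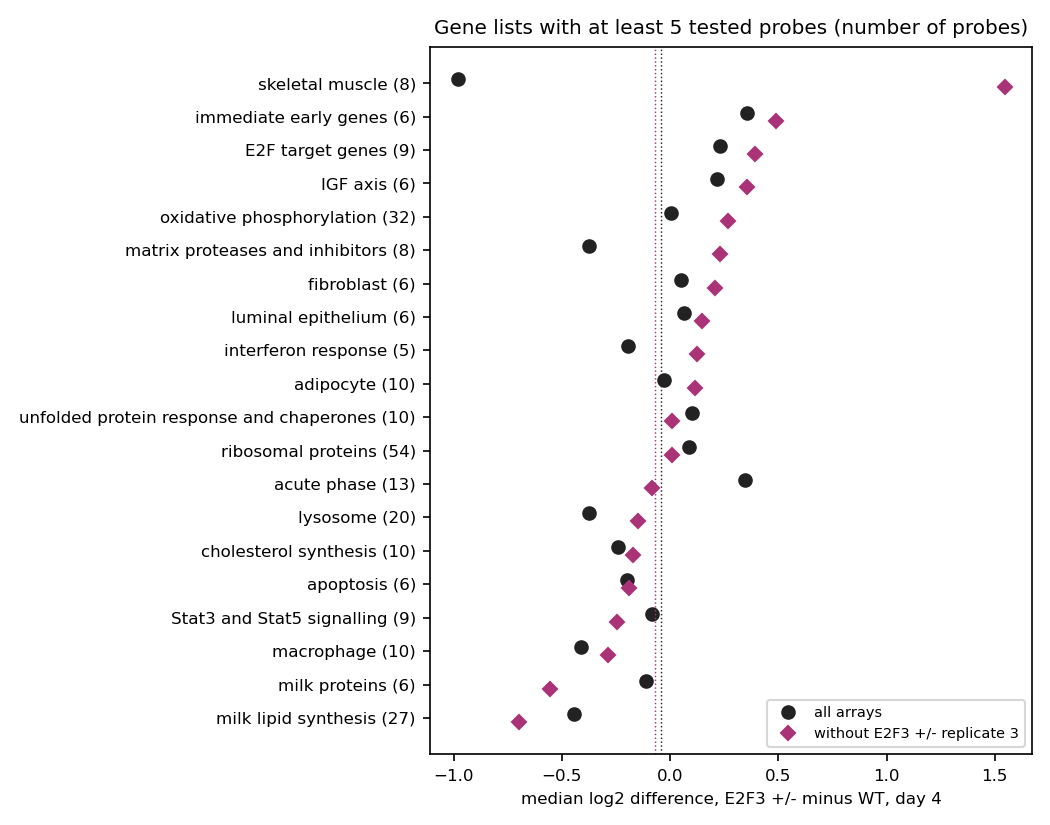
Median log2 difference, E2F3 +/- minus WT, of each list with at least 5 tested probes (their number in brackets), with all arrays (dark circles) and without replicate 3 of E2F3 +/- (purple diamonds). Dotted lines mark the medians of all tested probes. The muscle list moves from -0.98 to 1.55, and milk lipid synthesis is lowest without replicate 3 at -0.70.

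To see whether the genotype difference belonged to day 4, it was set against the mean difference of the other 4 times in the same model. With all arrays 48 probes passed (0.958%), 7 higher (0.14%) and 41 lower (0.818%), 37 of them also called at day 4 itself. Without replicate 3, 641 passed (12.8%), 115 higher (2.3%) and 526 lower (10.5%), 556 of them also called at day 4. Pim3 (-2.10 ± 0.39, adjusted p = 0.0117) and Ptf1a, a gene of pancreatic and neural development (-1.25 ± 0.26, adjusted p = 0.0143), were among the 6 with the smallest p, with Krt84, Plcxd3, Chrna6 and Ubl3. Lgals3 (-0.84 ± 0.48, adjusted p = 0.393) and Gpnmb (-1.64 ± 0.65, adjusted p = 0.216) did not pass.

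The same probes can be followed over the other arrays. The median of the 625 lower probes, on the centred log2 scale, was -1.94 and -1.91 on E2F3 +/- day 4 replicates 1 and 2, -0.10 on replicate 3, and -0.36 to -0.08 on the WT day 4 arrays. It was near 0 in lactation. Arrays of other groups shared the low level: -1.74 on WT day 2 replicate 3, with -0.88 and -0.73 on the other WT day 2 arrays, and -1.40 and -0.79 on E2F3 +/- day 3 replicates 2 and 3. The 152 higher probes followed the same arrays, at 0.90, 1.10 and 0.08 on E2F3 +/- day 4 and 0.95 on WT day 2 replicate 3. Since the 625 and 152 were chosen by their day 4 values, those values are a description. WT day 2 replicate 3 enters the spread of the model but not the day 4 difference. Leaving it out changed no difference, and 1057 probes passed, the 777 among them. That fit therefore cannot test what this array shares with the day 4 glands.

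**Figure D5:**
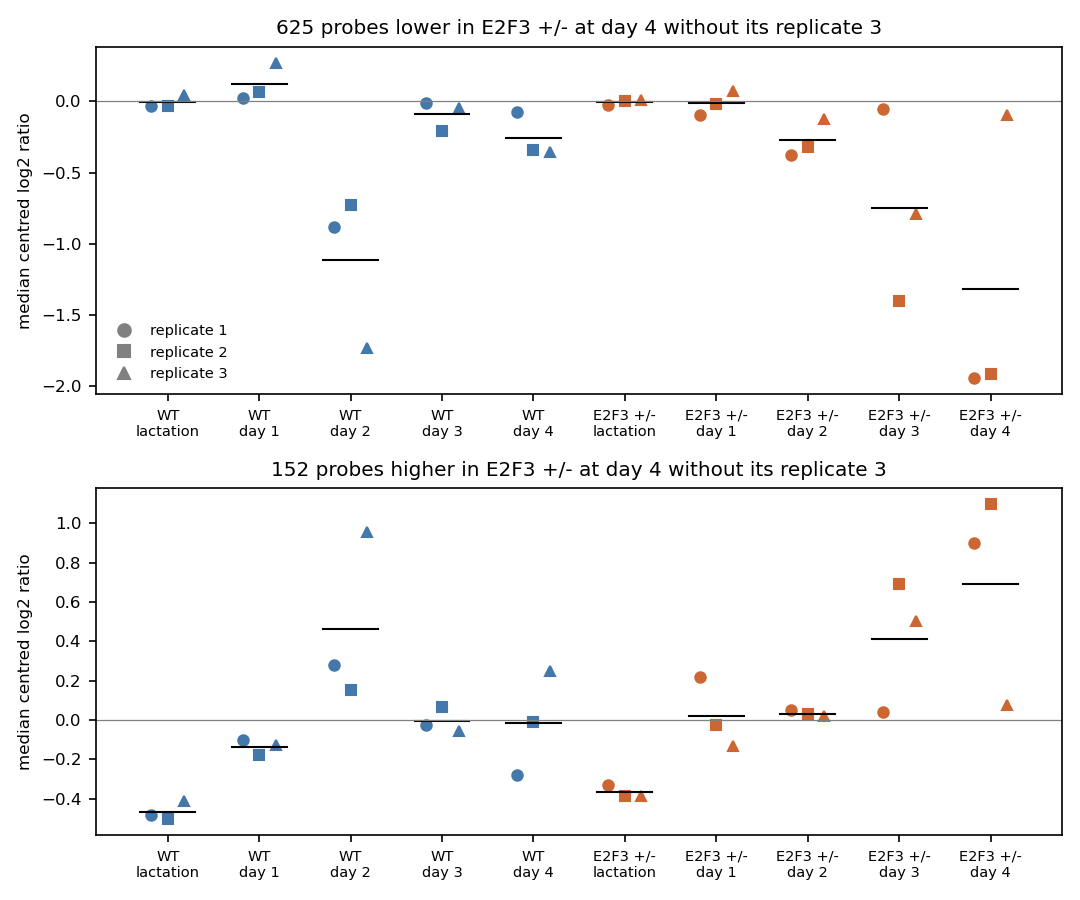
Median centred log2 ratio of the 625 lower (upper panel) and 152 higher probes (lower panel) on each of the 30 arrays, with the shape giving the replicate and the bar the mean of 3. The day 4 values chose the probes. WT day 2 replicate 3 lies at -1.74 and 0.95, beside E2F3 +/- day 4 replicates 1 and 2.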

How the data were processed

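The authors deposited 1 table of linear ratios for 6267 probes on 30 arrays. RNA was prepared by CsCl ultracentrifugation and amplified, per the labels' protocols. Which scanner was used, and how background, normalization and filtering were handled, is not given in the sources used here. No signal intensities were used, so the precision of 1 ratio is unknown. Ratios of 0 (13146 values) and 0.01 (1223 values), 7.64% of the table, were taken as missing, since the next value is 0.02 and their meaning is not given. Ratios were log2 transformed and each array was centred on its median. The lowest correlation between arrays was 0.379, so no array opposes the others. On 106 probes the ratios run in steps of 0.1 as if the reference sat at a fixed lowest value, and their ratios are bounded by it.

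A probe was tested with a value on at least 2 of 3 arrays in every group: 5010 were, 1257 were set aside and 3968 had a value on all arrays. Genes were named from the platform table (3997 probes with 1 symbol, 115 with several, 2155 with none), and 3160 tested probes carry 1 symbol, for 2901 genes. Nothing was imputed. Differences came from limma 3.58.1 in R 4.3.3 with 1 mean for each of the 10 groups, and the model was tested on simulated data. Python 3.11.15, pandas 2.3.3, numpy 2.4.6 and matplotlib 3.10.9 made tables and figures. The labels speak of 3 mice for each genotype and time, 1 for each array, so p values reflect the spread between mice.

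The comparison, the gene lists and the rule for named genes were chosen with earlier results of these data known. The rule names every tested E2F and retinoblastoma family probe and the 12 highest and 12 lowest probes with 1 symbol that passed both ways with groups apart. It adds the 6 of smallest p passing in 1 way only and the 6 of smallest p against the other times. It also adds up to 4 passing members per list in each fit, whatever their direction. Rb1, tested under another filter, and 5 lower genes were named after their values were seen. Acss1, Lamp2 and some list members given as not passing were also named outside the rule. Other alternatives were no centring, quantile normalization, 0.01 kept as a value, other filters, the day 4 groups alone, array weights, a muscle covariate, the replicate number as a block, and leaving out each day 4 array. Scaling arrays to 1 spread and leaving out WT day 2 replicate 3 were chosen after seeing the data.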

Additional observations from a re-analysis of the deposited data

Results flagged for a closer look

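The genotype difference at day 4 differed from its mean at the other 4 times, by limma's test of that contrast with all arrays, for 14 of the 60 named probes. With replicate 3 of E2F3 +/- day 4 left out, 48 of the 60 passed the same test. Apart from E2f1, the 60 were chosen by their day 4 difference, which enters this contrast, or by the contrast itself. Both counts are therefore raised by the choice. Of all 5010 tested probes, 48 (0.958%) passed with all arrays and 641 (12.8%) without replicate 3. The values below are the day 4 difference minus the mean of the others, on the log2 scale. They were negative for Krt84 (-3.55), Pim3 (-2.10), Trafd1 (-1.93), Aebp1 (-1.69), Plcxd3 (-1.37), Chrna6 (-1.36), Ptf1a (-1.25) and Ubl3 (-1.13). They were positive for Eif4g3 (1.66), Zfp503 (1.40), Vwa5a (1.37), Bcl9 (1.30), Gm6212 (1.20) and 1 of 3 probes of Nras (0.91). Of these, the Ptf1a probe did not pass at day 4 itself with all arrays (adjusted p = 0.0783).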

How the results depend on the processing

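The count of probes that differed at day 4 with all arrays (56) fell to 23 after quantile normalization, to 0 with only the day 4 groups (288 at an unadjusted p under 0.05) and to 11 with arrays scaled to 1 median absolute deviation. It rose to 447 with the muscle covariate and to 1050 with array weights, which gave E2F3 +/- replicate 3 a weight of 0.143. Leaving out 1 array gave 1 to 777 probes: 5, 35 and 17 without WT replicates 1, 2 and 3, and 3, 1 and 777 without E2F3 +/- replicates 1, 2 and 3. Without E2F3 +/- replicate 3, the count of 777 became 339 after quantile normalization, 391 with the day 4 groups alone and 329 after scaling, and 368 to 733 with a further array left out (368 without E2F3 +/- replicate 2). The count against the other times (48) became 884 with weights and 583 with the muscle covariate, and 1 to 641 without 1 array: 23 and 1 without WT replicates 1 and 3, and 4, 22 and 641 without E2F3 +/- replicates 1, 2 and 3. List members passing (0) became 2 with probes on every array, 44 with weights, 17 with the muscle covariate, 3 without WT day 2 replicate 3 and 0 to 33 without 1 array. The difference in position on the time course (0.105) ran from 0.0109 to 0.2336 without 1 array and kept its sign in every setting run. The replicate block gave 50 probes with all arrays, 771 without replicate 3, 51 against the other times and 0 list members. Deviations of arrays with the same number correlated at -0.271, 0.082 and -0.218. Deviations sum to 0 within each group of 3 arrays, so these values cannot tell whether the numbers pair the mice. Of 1009 values of named probes under alternatives to the fit of all arrays, 6 changed sign. They belong to Elovl1, Igf1 and Bak1, which were not called with all arrays but were called without E2F3 +/- replicate 3. Elovl1 differed by 0.023 without E2F3 +/- replicate 2 (-1.035 to 0.023 over the arrays left out). Igf1 differed by -0.09, -0.07 and -0.29 without WT replicate 1, E2F3 +/- replicate 1 and replicate 2 (-0.288 to 0.939). After scaling it differed by -0.19. Bak1 differed by 0.90 without E2F3 +/- replicate 1 (-2.07 to 0.90). The causes were not tested.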
